A study of Mus musculus with 2 samples.

Results

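Kupffer cells are the resident macrophages of the liver sinusoids. They take up dead cells, haemoglobin, iron and bacterial products from portal blood, and they can present peptides to CD4+ T cells on MHC class II molecules. The cells described here were chosen as barcodes (droplets) of at least 500 UMIs (unique molecular identifiers, 1 per captured RNA molecule) with at least 4 UMIs over 8 marker genes: Clec4f, Vsig4, Timd4, Cd5l, Marco, C1qa, C1qb and C1qc. Members, as these barcodes are called below, were thus chosen by their total UMIs and by the counts of those 8 genes. There were 1295 of them among 341974 barcodes: 1100 in the GS-KO library and 195 in the control library.

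The GS-KO library came from the liver of 1 mouse given the AAV8-Cre virus, and the control library from the liver of 1 mouse given AAV8-GFP. Both mice carried floxed alleles of Glul (Glulf/f), which encodes glutamine synthetase, were 11 weeks old, bore no tumour and were sampled 2 weeks after infection. The labels name no promoter for Cre or GFP and no cell type to which the virus was limited. AAV8 is known as a vector that enters mainly hepatocytes, and hepatocytes next to the central vein are the main site of glutamine synthetase in liver. Digestion used perfusion of 0.3 mg/mL collagenase II, and isolated hepatocytes and purified non-parenchymal cells entered a 10x 5-prime library, which the labels call both single-cell and snRNA-seq. With 1 library of 1 mouse in each group there is no replicate check, no test between the groups and no p-value. Intervals are exact 95% intervals that cover counting error only.

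Members made up 9.27% (8.75 to 9.80) of the 11871 GS-KO barcodes of at least 500 UMIs, against 1.42% (1.23 to 1.64) of the 13692 such control barcodes. The mixing of hepatocytes with non-parenchymal cells sets these shares in part, so they are not a count of Kupffer cells in the liver. A member held a median of 606 UMIs and 431.5 genes in the GS-KO library, against 575 UMIs and 420 genes in the control library. Rule-gene UMIs reached a median of 9 per GS-KO member and 6 per control member. At the rate seen in barcodes of 200 to under 300 UMIs, called small barcodes below and used as a measure of free RNA, a barcode of the median size would hold 0.335 rule-gene UMIs in the GS-KO library and 0.0611 in the control library. Both libraries held 8108 barcodes in common, 1 of which was a member in both. Doublets were not removed.

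The label was checked on 18 other genes known from Kupffer cells, none of which chose the members. Their summed level in GS-KO members was 4851 CPM (counts per 1000000 UMIs of the member total, 4698 to 5009), against 441 CPM in small GS-KO barcodes and 326 CPM in GS-KO barcodes of at least 500 UMIs without a rule-gene UMI, called other large barcodes below. In control members it was 4503 CPM (4146 to 4883), against 421 and 352 CPM in the same 2 kinds of control barcode. Each of the 17 genes measured, meaning at least 20 member UMIs over both libraries, was 2-fold or more above small barcodes in the GS-KO library and 16 of 17 in the control library. Over all 6583 measured genes that share was 40.5% in the GS-KO library and 34.8% in the control library. The 20 genes that stood furthest above small barcodes in both libraries were led by H2-Ab1, Dock2, Slc8a1, H2-Aa, Wfdc17 and Csf1r, the receptor for the macrophage growth factor CSF1. The list also held Zeb2, Fcer1g, Hdac9, Myo9a, Cyba, Pltp, Rgs1, Ccl6, Fyb, Bank1, Tmsb4x, Tyrobp, Sdc3 and Lyz2. Fcer1g and Tyrobp encode signalling adaptors of Fc and other myeloid receptors, and Lyz2 encodes lysozyme. Slc8a1 and Zeb2 were not low in other large barcodes: Slc8a1 had 181 CPM there in the GS-KO library and 152 CPM in the control library.

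Among the rule genes, given as a description of the choice, Clec4f had 1557 CPM in GS-KO members and 2513 CPM in control members. C1qb, a subunit of the complement protein C1q, had 3032 CPM in GS-KO members and 1952 CPM in control members. The intervals of the ratio of Vsig4, Marco and Timd4 include no difference. A UMI of Clec4f, Vsig4, Timd4, Cd5l or Marco was seen in 89.7% of GS-KO members and 96.4% of control members. Just outside the threshold, the 153 GS-KO barcodes with 3 rule-gene UMIs had 2020 CPM of the other Kupffer genes, against 3059 CPM in the 125 with 4. In the control library the 60 barcodes with 3 had 2574 CPM and the 38 with 4 had 2919 CPM. The minimum of 500 UMIs also cut through barcodes that met the rule-gene threshold. In narrow windows of equal width, 571 such GS-KO barcodes lay just under 500 UMIs and 354 just above. They had 6987 and 6723 CPM of the other Kupffer genes. Of control barcodes, 107 lay just under, with 6520 CPM, and 80 just above, with 6047 CPM. Members are thus the larger of these barcodes, and whether small barcodes hold Kupffer cells besides free RNA was not tested.

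RNA of hepatocytes was present in the members. A list of 16 hepatocyte markers, among them Alb and Ttr, took 6.40% of UMIs in GS-KO members and 8.01% in control members. Small barcodes held 15.5% in the GS-KO library and 14.7% in the control library, and other large barcodes 9.94% in the GS-KO library and 11.7% in the control library. The nuclear transcript Malat1 stood at 8931 CPM in GS-KO members and 6001 CPM in control members, and mitochondrial genes took 4.55% of UMIs in GS-KO members and 6.34% in control members. The part of these differences in the results below was not tested. The 12 liver endothelial markers summed to 896 CPM in GS-KO members and 914 CPM in control members, and the 13 stellate cell and fibroblast markers to 912 CPM in GS-KO members and 1468 CPM in control members. At 1000 UMIs or more, with 12 control members, the log2 ratio of the stellate list turned to 0.68. Within the stellate list Dcn was seen in 151 GS-KO and 29 control members. T and NK cell markers summed to 10 UMIs over all GS-KO members and 0 over control members, with Cd3e, Trac, Gzma, Gzmb, Klrb1c and Ncr1 at 0 in both. Monocyte markers summed to 1049 CPM in GS-KO members and 899 CPM in control members, most of it Fn1, with Vcan and Ace at 0 in both. Of 3 measured monocyte genes, 2 were 2-fold or more higher in GS-KO members, with a median log2 ratio of GS-KO over control of 1.82. Plac8 had 94 UMIs in GS-KO members and 4 in control members, and Cd300e had 43 UMIs in GS-KO members and 1 in control members. Ccr2 and Ly6c2 had 18 and 6 UMIs in GS-KO members and 0 in control members. These markers were higher together with the class II and interferon genes described below, and their part in those results was not tested. Dendritic cell markers summed to 109 CPM in GS-KO members and 46.1 CPM in control members, with Flt3, Cd209a and Ccr7 at 0 in both. B cell markers, mostly Bank1, summed to 246 CPM in GS-KO members and 169 CPM in control members, with Ms4a1 and Pax5 at 0 in both, and plasma cell markers to 200 CPM in GS-KO members and 384 CPM in control members. The plasma cell difference turned with the choice of members: its log2 ratio was -0.95 as chosen, 0.79 with at least 6 rule-gene UMIs and 0.17 with at least 2 UMIs outside C1qa, C1qb and C1qc. Neutrophil, cholangiocyte and erythroid markers held 41, 25 and 35 UMIs over all GS-KO members, against 3, 0 and 1 UMIs over all control members.

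In members, MHC class II was the gene list with the highest ratio of the 22 compared. H2-Aa, H2-Ab1 and H2-Eb1 encode chains of the class II dimers, Cd74 encodes the invariant chain that guards their groove, H2-DMa, H2-DMb1 and H2-DMb2 load peptides, and Ciita encodes the coactivator that class II promoters depend on. Those promoters are known for an X box bound by the RFX complex and a Y box bound by NF-Y, which reads CCAAT. The 120 bases before the RefSeq start site are shown for 3 class II genes, to let a reader see these letters in genes that were higher together. Sequences are from RefSeq on GRCm38.p6, 5′ to 3′ on the gene's strand, and capitals mark CCAAT on either strand (ATTGG on the other) and AACNGATG, searched on both strands as the core of an X box. The windows are chr17:34287824-34287943 on the minus strand for H2-Aa, chr17:34305747-34305866 on the plus strand for H2-Eb1 and chr17:34153071-34153190 on the plus strand for H2-DMb1.
H2-Aa: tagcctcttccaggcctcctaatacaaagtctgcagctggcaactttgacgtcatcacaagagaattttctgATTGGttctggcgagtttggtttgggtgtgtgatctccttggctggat
H2-Eb1: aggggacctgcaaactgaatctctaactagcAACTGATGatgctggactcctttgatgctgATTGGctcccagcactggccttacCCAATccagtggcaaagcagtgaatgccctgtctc
H2-DMb1: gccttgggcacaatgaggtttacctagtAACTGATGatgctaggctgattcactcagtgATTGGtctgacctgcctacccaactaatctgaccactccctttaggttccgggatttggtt
The 3 windows were picked to show the motifs. Over all 9 class II list genes in the sequence table, 7 held CCAAT and 2, H2-Eb1 and H2-DMb1, held AACNGATG, and H2-DMa and Cd80 held neither. Of 32851 RefSeq windows of the same length, 21.3% held CCAAT, 0.901% held AACNGATG and 0.167% held both. A match is a description of the letters and not a measured site. Of the 14 class II genes listed, the 5 others are named only.

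The class II list summed to 18855 CPM (18551 to 19163) in GS-KO members, against 3811 CPM (3483 to 4162) in control members. The log2 ratio was 2.31 (2.18 to 2.44). All ratios are GS-KO over control with 0.5 counts added to each sum. Of 9 measured genes, 8 were 2-fold or more higher in GS-KO members and 0 were 2-fold or more lower, beside 11.9% higher and 6.59% lower of all 6583 measured genes. The median log2 ratio was 2.25 (1.97 with the gene at 0 UMIs in control members set to its bound), against -0.03 over all measured genes. The counts of other lists below stand beside the same 11.9% and 6.59%, and several lists with 1 or 2 genes called, such as iron, scavenger and complement genes, lie near those shares. H2-Aa (chr17:34282744-34287823, GRCm38) had 6056 CPM in GS-KO members and 1099 CPM in control members, a log2 ratio of 2.46 (2.22 to 2.71). Cd74 had 8591 CPM in GS-KO members and 1798 CPM in control members. H2-Ab1 had 3380 CPM in GS-KO members and 630 CPM in control members. These 3 transcripts carried most of the list, and each was over 4-fold higher in GS-KO members before free RNA was taken off.

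H2-DMa had 418 CPM in GS-KO members and 146 CPM in control members (log2 ratio 1.48, 0.85 to 2.27). Ciita had 58 UMIs in GS-KO members and 2 in control members (log2 ratio 1.97, 0.36 to 5.36). H2-DMb1 and H2-DMb2 had 72 and 49 UMIs in GS-KO members, against 2 UMIs each in control members. H2-Eb1 had 42 UMIs in GS-KO members and 0 in control members, at least 2.35-fold higher with the control set to 3 UMIs. Cd86, a costimulatory ligand for T cells, had 99.1 CPM in GS-KO members and 69.2 CPM in control members, with an interval of the log2 ratio (-0.48 to 1.70) that includes 0. Cd80 and Cd40, the other costimulatory genes of the list, had 5 and 7 UMIs in GS-KO members and 1 UMI each in control members. H2-Ob had 4 UMIs in GS-KO members and 1 in control members, H2-Oa had 4 in GS-KO members and 0 in control members, and H2-Eb2 had 0 in both. For Cd80 and H2-Ob that is a lower CPM in GS-KO members, 6.44 CPM for Cd80 and 5.15 CPM for H2-Ob, against 7.68 CPM each in control members, at counts too few to compare.

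Class II RNA was also present in small GS-KO barcodes, and whether it was free there or held in small cells was not tested. The list summed to 1146 CPM in small GS-KO barcodes, against 47.2 CPM in small control barcodes, a log2 ratio of 4.60. In other large barcodes it summed to 759 CPM in the GS-KO library and 32.6 CPM in the control library. The ratio was thus larger outside the members than in them, at lower levels. At the small-barcode rates a member of the median size would hold 0.675 UMIs of H2-Aa, H2-Ab1, H2-Eb1 and Cd74 in the GS-KO library and 0.0248 in the control library. The measured medians were 12 UMIs per GS-KO member and 2 per control member. With free RNA taken off, its share set by hepatocyte markers at 41.4% of GS-KO and 54.5% of control member UMIs, the log2 ratio of the list was 1.91.

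Most GS-KO members carried class II RNA. At least 4 UMIs of the 4 genes were seen in 92.9% of GS-KO members (91.2 to 94.4) and 23.6% of control members (17.8 to 30.2). None was seen in 11 GS-KO members and 51 control members. With every barcode thinned to 500 UMIs, the shares with at least 4 were 85.5% of GS-KO members and 17.9% of control members. Other large barcodes thinned in the same way held at least 4 in 1.15% of the GS-KO library and 0.0388% of the control library, at median depths of 679.5 and 664 UMIs before thinning. Members in the same range of rule-gene UMIs also differed, though the number was not matched within a range. With 5 to 9 rule-gene UMIs, H2-Aa, H2-Ab1, H2-Eb1 and Cd74 together stood at 15712 CPM in GS-KO members and 3514 CPM in control members. With 10 or more these 4 genes stood at 22607 CPM in GS-KO members and 4410 CPM in control members.

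**Figure D1:**
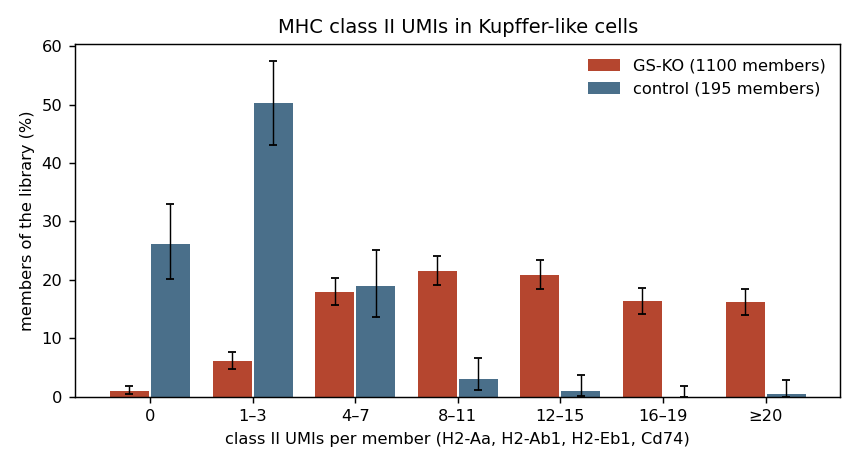
Percentage of members of each library (y axis) by UMIs of H2-Aa, H2-Ab1, H2-Eb1 and Cd74 per member (x axis), GS-KO left of control. Bars are shares with exact 95% binomial intervals. GS-KO members spread from 4 UMIs upward, with 16.2% at 20 or more, and 50.3% of control members held 1 to 3.

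MHC class I, which presents peptides to CD8+ T cells, was higher in GS-KO members to a smaller degree. The list of 14 genes summed to 8008 CPM in GS-KO members and 4065 CPM in control members (log2 ratio 0.98, 0.85 to 1.11). Of 14 measured genes, 8 were 2-fold or more higher (7 with H2-M3, at 0 in control members, at its bound) and 0 were 2-fold or more lower. The median log2 ratio was 1.20 (0.99 with H2-M3 at its bound). H2-K1 had 953 CPM in GS-KO members and 369 CPM in control members, and the immunoproteasome subunit Psmb8 had 245 CPM in GS-KO members and 69.2 CPM in control members. B2m, the light chain of class I, had 3763 CPM in GS-KO members and 2205 CPM in control members. Small barcodes differed by a like degree, with 6527 CPM of the list in the GS-KO library and 3414 CPM in the control library, and the part of free RNA in the members' difference was not tested gene by gene.

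Genes known to respond to interferon gamma, which also drives Ciita, were higher in GS-KO members. The list summed to 1606 CPM in GS-KO members and 538 CPM in control members (log2 ratio 1.57, 1.23 to 1.95). Of 16 measured genes, 13 were 2-fold or more higher (11 with genes at 0 in control members at their bound), and 0 were 2-fold or more lower, beside 11.9% and 6.59% of all measured genes. The median log2 ratio was 2.02 (1.58 with those genes at their bound). Irf1, a transcription factor that interferon gamma induces, had 143 CPM in GS-KO members and 30.7 CPM in control members (log2 ratio 2.05, 0.82 to 4.12). Gbp3 and Gbp8, guanylate-binding proteins of the defence against microbes, had 94.0 and 121 CPM in GS-KO members, against 15.4 and 38.4 CPM in control members. Iigp1 had 292 CPM in GS-KO members and 223 CPM in control members, an interval of the log2 ratio (-0.17 to 1.00) that includes 0. The list was also higher in small barcodes, at 1249 CPM in the GS-KO library and 567 CPM in the control library. With free RNA taken off, the log2 ratio in members was 1.77.

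Type I interferon response genes summed to 600 CPM in GS-KO members and 184 CPM in control members (log2 ratio 1.67, 1.11 to 2.36) with 24 UMIs in control members. Of 10 measured genes, 7 were 2-fold or more higher (6 with Ifit2, at 0 in control members, at its bound) and 0 lower, with a median log2 ratio of 1.77 (1.42 at the bound). Small barcodes held 344 CPM of the list in the GS-KO library and 127 CPM in the control library. Rtp4 had 71 UMIs in GS-KO members and 1 in control members, and Stat2 had 52 UMIs in GS-KO members and 2 in control members. The 15 genes with the highest ratio included, from outside the lists, Gbp2b, at 454 CPM in GS-KO members and 46.1 CPM in control members (log2 ratio 3.19, 2.16 to 4.76), and Ly6a, at 158 CPM in GS-KO members and 15.4 CPM in control members. Ifi202b, Calhm6 and Art2b, which encodes a surface ADP-ribosyltransferase, had 80, 73 and 60 UMIs in GS-KO members, against 1, 0 and 0 UMIs in control members. Calhm6 and Art2b were thus at least 4.08-fold and 3.35-fold higher. At 1000 UMIs or more Art2b stood at a log2 ratio of -0.040, with 0 UMIs in control members. That sign came from the counts added to each sum.

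**Figure D2:**
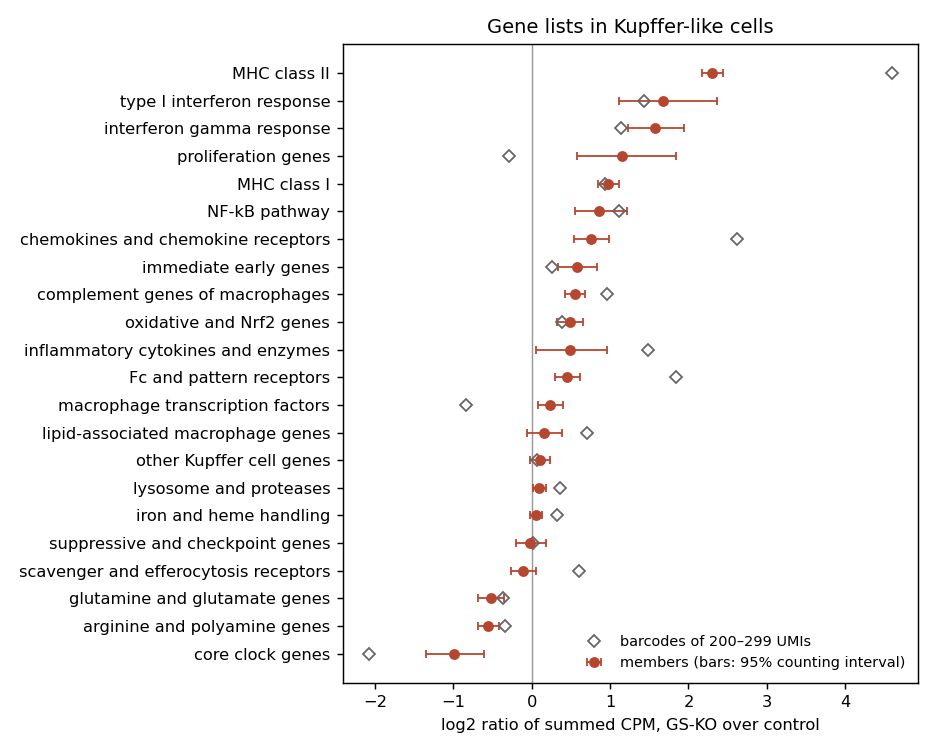
Log2 ratio of summed CPM, GS-KO over control (x axis), for 22 gene lists (y axis), in members (red dots with 95% counting intervals) and in barcodes of 200 to under 300 UMIs (grey diamonds). MHC class II stands highest in members at 2.31, the lists of Kupffer cell, iron, lysosome and suppressive genes lie between -0.02 and 0.11, and core clock genes are lowest at -0.99.

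Chemokine genes were higher in part. The list summed to 2377 CPM in GS-KO members and 1406 CPM in control members (log2 ratio 0.75, 0.54 to 0.98), with 8 of 15 measured genes 2-fold or more higher (7 at the bound) and 0 lower, and a median log2 ratio of 1.33 (0.92 at the bound). Small barcodes held 732 CPM of the list in the GS-KO library and 119 CPM in the control library. Cxcl9, which attracts activated T cells, had 82 UMIs in GS-KO members and 1 in control members (log2 ratio 3.20, 1.26 to 9.10). At 1000 UMIs or more, with 109 GS-KO and 12 control members, its log2 ratio turned to -1.63. Control members held at most 1 UMI of it there, too few to compare. Its UMIs came from few barcodes: 45 of 1100 GS-KO members (4.09%) held any, up to 12 in 1 member, against 1 of 195 control members. Of other large barcodes, 2.87% held any in the GS-KO library and 0.132% in the control library. Cxcl13, which attracts B cells, had 215 CPM in GS-KO members and 61.5 CPM in control members (log2 ratio 1.72, 0.79 to 3.04). The fractalkine receptor Cx3cr1 had 86 UMIs in GS-KO members and 4 in control members. Ccl6, among the most abundant of the list, had 857 CPM in GS-KO members and 730 CPM in control members, with an interval (-0.08 to 0.56) that includes 0. Cxcl1 had 278 CPM in GS-KO members but 415 CPM in small and 595 CPM in other large GS-KO barcodes, so its level in members lay under that of free RNA.

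Classical inflammatory cytokines were sparse, and their list summed to 510 CPM in GS-KO members and 361 CPM in control members (log2 ratio 0.48, 0.06 to 0.97), with 1 of 6 measured genes 2-fold or more higher (0 at the bound). Il1b had 126 CPM in GS-KO members and 69.2 CPM in control members (log2 ratio 0.80, -0.12 to 2.04). Tnf had 11 UMIs in GS-KO members and 0 in control members, and Il6 and Il12b had 3 UMIs each in GS-KO members and 0 in control members. The NF-kB list summed to 1182 CPM in GS-KO members and 645 CPM in control members (log2 ratio 0.86, 0.55 to 1.21), with 6 of 15 measured genes 2-fold or more higher (4 at the bound) and a median of 0.88 (0.77 at the bound). Other large GS-KO barcodes held more than GS-KO members of 5 of those 6 genes, Relb, Nfkbiz, Tnfaip3, Birc3 and Ikbke. Icam1 was the exception, at 85.0 CPM in GS-KO members and 54.6 CPM in other large GS-KO barcodes. Cybb, the catalytic subunit of the phagocyte oxidase, had 590 CPM in GS-KO members and 269 CPM in control members (log2 ratio 1.11, 0.64 to 1.67), and 202 CPM in small GS-KO barcodes against 3.78 CPM in small control barcodes. With free RNA taken off, the log2 ratio of Cybb was 0.54, under 2-fold.

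Genes of Kupffer identity stood close in the 2 libraries as a sum. The list of other Kupffer cell genes had a log2 ratio of 0.11 (-0.02 to 0.24), with 4 of 17 measured genes 2-fold or more higher, 1 lower and a median of 0.47. With free RNA taken off, the ratio of this list turned to -0.24. The higher genes were Il18bp, a decoy for interleukin 18, at 501 CPM in GS-KO members and 231 CPM in control members, Cd207 at 265 CPM in GS-KO members and 115 CPM in control members, Id3 at 349 CPM in GS-KO members and 169 CPM in control members, and Fcgr1 at 52 UMIs in GS-KO members and 3 in control members. The interval of Fcgr1 (-0.09 to 3.86) includes 0, and Id3 turned to -0.59 at 1000 UMIs or more. With free RNA taken off, Il18bp had a log2 ratio of 0.71, under 2-fold. The lower gene was Cd163. Csf1r had 548 CPM in GS-KO members and 507 CPM in control members, and Cd68, a lysosomal glycoprotein of macrophages, had 375 CPM in GS-KO members and 284 CPM in control members. Wfdc17 had 1330 CPM in GS-KO members and 2144 CPM in control members (log2 ratio -0.69, -0.88 to -0.49). The list of macrophage transcription factors had a log2 ratio of 0.23 (0.08 to 0.40) and a median of 0.28, with 3 of 16 measured genes 2-fold or more higher and 1 lower. Spi1 (PU.1) had 247 CPM in GS-KO members and 76.8 CPM in control members (log2 ratio 1.62, 0.78 to 2.77). Runx1 was the lower one, at 67.0 CPM in GS-KO members and 154 CPM in control members (log2 ratio -1.22, -1.97 to -0.38). Nr1h3, which encodes the sterol receptor LXR alpha of Kupffer cells, had 188 CPM in GS-KO members and 192 CPM in control members. Fc and pattern receptors had a list ratio of 0.45 (0.30 to 0.62) and a median of 0.30, with 3 of 13 measured genes higher, Fcgr1, Cd14 and Tlr2, and 0 lower.

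Cd163, the scavenger receptor for haemoglobin bound to haptoglobin (chr6:124304656-124330527, GRCm38), was the gene with the lowest ratio under the naming rule. It had 43.8 CPM (30.3 to 61.2) in GS-KO members and 400 CPM (298 to 524) in control members. The log2 ratio was -3.18 (-3.86 to -2.54). A Cd163 UMI was seen in 33 of 1100 GS-KO members (3.00%, 2.07 to 4.19) and 43 of 195 control members (22.1%, 16.4 to 28.5). Other large barcodes held one in 0.115% of the GS-KO library and 0.155% of the control library. Small barcodes had 3.99 CPM in the GS-KO library and 4.39 CPM in the control library, far under the level in control members. The naming rule itself asked for a level 2-fold above small control barcodes.

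**Figure D3:**
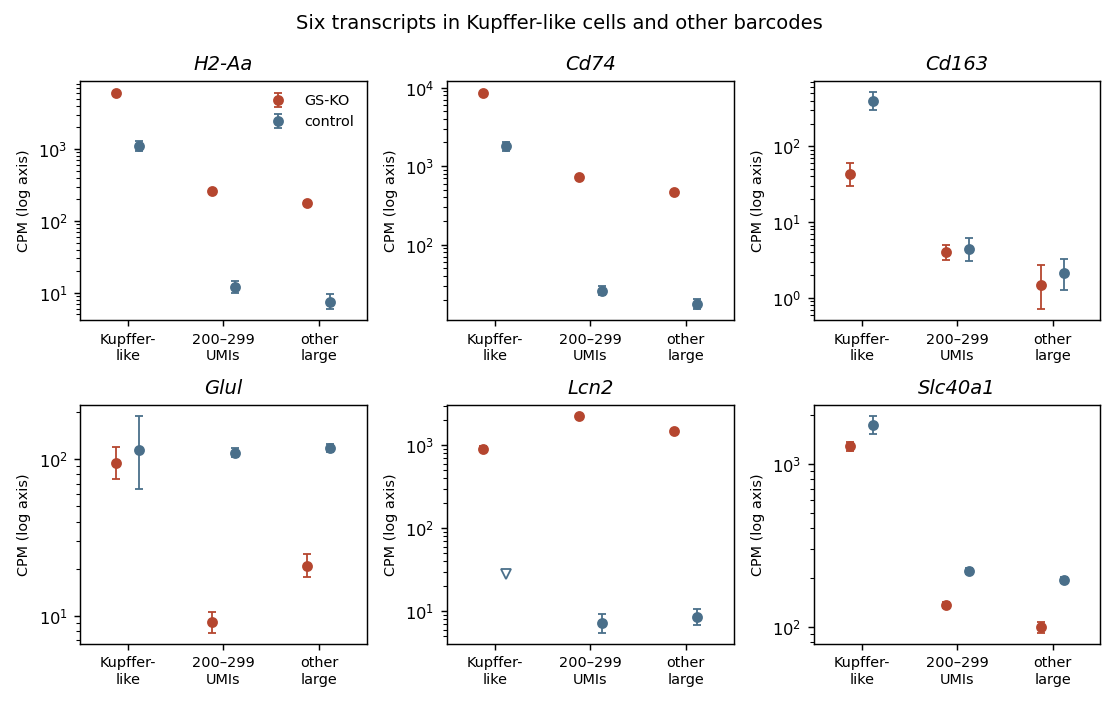
Level of 6 transcripts in CPM (log axis) in members, in barcodes of 200 to under 300 UMIs and in other large barcodes (x axis), GS-KO left of control, with exact 95% Poisson intervals. The open triangle marks the upper limit for a level of 0 UMIs. Cd163 differs in members, at 43.8 CPM in GS-KO and 400 CPM in control, while the intervals of Glul overlap in members, with 95.3 CPM in GS-KO and 115 CPM in control members.

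Apart from Lcn2, described below, the other measured genes of iron handling and debris clearance differed less than Cd163. The iron and heme list summed to 13314 CPM in GS-KO members and 12848 CPM in control members (log2 ratio 0.05, -0.02 to 0.13, median 0.10), with 1 of 12 measured genes higher, Lcn2, and 1 lower, Cd163, shares near those of all measured genes. With free RNA taken off the log2 ratio was -0.26. Slc40a1, the iron exporter ferroportin, had 1276 CPM in GS-KO members and 1729 CPM in control members (log2 ratio -0.44, -0.65 to -0.22). The heme-degrading enzyme Hmox1 had 619 CPM in GS-KO members and 507 CPM in control members, with an interval (-0.09 to 0.68) that includes 0. Scavenger and efferocytosis receptors had a list ratio of -0.11 (-0.26 to 0.05) and a median of the other sign, 0.04, with 2 of 15 measured genes higher, Scarb1 and Gas6, and 1 lower, Cd163. Gas6 rested on 25 UMIs in GS-KO members and 1 in control members, and Scarb1 had more in other large GS-KO barcodes than in members. Mertk and Axl, which bind dying cells, had 276 and 156 CPM in GS-KO members, against 353 and 184 CPM in control members, and both intervals include 0. The macrophage mannose receptor Mrc1 had 449 CPM in GS-KO members and 361 CPM in control members (log2 ratio 0.30, -0.13 to 0.79).

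Lysosomal genes had a list ratio of 0.10 (0.02 to 0.18), which turned to -0.25 with free RNA taken off, and a median of 0.03, with 0 of 18 measured genes 2-fold higher and 1 lower. Cathepsins differed in direction. Ctsd, an aspartic protease, had 427 CPM in GS-KO members and 984 CPM in control members (log2 ratio -1.21, -1.50 to -0.90). Ctsb, a cysteine protease, had 1513 CPM in GS-KO members and 1929 CPM in control members (log2 ratio -0.35, -0.55 to -0.15). Ctss, the cysteine protease that trims the invariant chain, had 1316 CPM in GS-KO members and 715 CPM in control members (log2 ratio 0.87, 0.57 to 1.20). Only Ctsd of these 3 passed 2-fold.

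Suppressive and checkpoint genes had about the same sum in both libraries, at 2056 CPM in GS-KO members and 2075 CPM in control members (log2 ratio -0.02, -0.20 to 0.18), with a median of the other sign, 0.21. Of 13 measured genes, 1 was 2-fold or more higher and 1 lower. The higher one was Cd274, which encodes the ligand PD-L1, with 66 UMIs in GS-KO members and 0 in control members, at least 3.69-fold higher. At 1000 UMIs or more its log2 ratio was -0.040. Control members held 0 UMIs of Cd274 there as well, so the negative sign came from the counts added to each sum. A Cd274 UMI was seen in 5.36% of GS-KO members (4.11 to 6.86) and 0 of 195 control members, whose exact interval reaches 1.87%. Other large barcodes held one in 0.242% of the GS-KO library and 0.0620% of the control library. The lower one was Trem2, a lipid receptor of macrophages, with 12 UMIs in each library, or 15.5 CPM in GS-KO members and 92.2 CPM in control members (log2 ratio -2.58, -3.86 to -1.29). Arg1 had 454 CPM in GS-KO members but 931 CPM in small GS-KO barcodes, so its level in members lay under that of free RNA. Lipid-associated macrophage genes had a list ratio of 0.16 (-0.06 to 0.39), or -0.24 with free RNA taken off, with 1 of 9 measured genes higher, Plin2, and 2 lower, Trem2 and Cd63. Gpnmb and Spp1 had 1 UMI each in GS-KO members and 0 in control members.

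Glul (chr1:153899944-153909723, GRCm38), the targeted gene, had 95.3 CPM (74.8 to 120) in GS-KO members and 115 CPM (64.5 to 190) in control members. The log2 ratio was -0.31 (-1.09 to 0.63). It took the other sign in some settings, at 0.28 with free RNA taken off (156 CPM in GS-KO members and 121 CPM in control members) and 1.31 at 1000 UMIs or more. In other large barcodes it had 21.0 CPM (17.7 to 24.7) in the GS-KO library and 119 CPM (112 to 126) in the control library, a log2 ratio of -2.50 (-2.76 to -2.25). In small barcodes it had 9.11 CPM in the GS-KO library and 110 CPM in the control library, a log2 ratio of -3.60 (-3.84 to -3.36). A Glul UMI was seen in 6.55% of GS-KO members (5.16 to 8.17) and 7.69% of control members (4.37 to 12.4), against 1.48% of other large GS-KO barcodes and 7.77% of other large control barcodes. Within the GS-KO library members thus held more Glul than both other kinds of barcode. In the control library the 3 levels lay within the members' interval, so members cannot be told from free RNA there. Which exons of Glul these UMIs came from is not given in the counts.

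Other glutamine and glutamate genes were lower as a sum, at 1967 CPM in GS-KO members and 2828 CPM in control members (log2 ratio -0.52, -0.69 to -0.36, median -0.31), with 1 of 14 measured genes 2-fold higher and 4 lower. The lower genes were Got1, Got2 and Gpt2, transaminases that are abundant in hepatocytes, and the glutamine transporter Slc38a2. Got2 had 148 CPM in GS-KO members and 330 CPM in control members, and small barcodes had more than members in both libraries, 350 CPM in GS-KO and 459 CPM in control. Slc38a1, a glutamine transporter, had 22 UMIs in GS-KO members and 1 in control members, with an interval (-0.75 to 7.25) that includes 0. Arginine and polyamine genes summed to 3122 CPM in GS-KO members and 4572 CPM in control members (log2 ratio -0.55, -0.68 to -0.42), and to 5130 CPM in small GS-KO and 6489 CPM in small control barcodes. The 1 gene of 6 measured that was 2-fold lower, Asl of the urea cycle, also had more in small barcodes than in members of both libraries.

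Some genes with the highest ratios in members had still higher levels in other GS-KO barcodes. Lcn2, which encodes an iron-scavenging acute-phase protein made by hepatocytes and neutrophils, had 705 UMIs (908 CPM) in GS-KO members and 0 in control members, at least 39.4-fold higher. Its level was higher still in small GS-KO barcodes, at 2251 CPM, against 7.19 CPM in small control barcodes. Mug2, Chrm3, Col4a3, Chka, Rad51b, Fyb2 and Slc41a2 were also among the 15 genes with the highest ratio, and each had a higher level in other large GS-KO barcodes than in members. Mug2, which encodes a protease inhibitor of plasma, had 344 CPM in GS-KO members and 7.68 CPM in control members. In other large barcodes it had 878 CPM in the GS-KO library and 42.9 CPM in the control library. Of the 15, Gbp2b, Calhm6, Cd274, Art2b, Ifi202b, Ly6a, Nedd9 and Rtp4 had more in GS-KO members than in other large GS-KO barcodes. A level 2-fold or more above small GS-KO barcodes was a condition for all 15, so that comparison is part of the choice.

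The 15 genes with the lowest ratio were Cd163, Fkbp5, Ntm, Vcam1, Arhgef26, Ank3, Rapgef4, Jchain, Reln, Prkg1, Zbtb16, Abcc9, Cask, Dym and Adipor2. Vcam1, an adhesion molecule that Kupffer cells carry, had 79.8 CPM in GS-KO members and 277 CPM in control members (log2 ratio -1.80, -2.41 to -1.16), against 11.0 CPM in small GS-KO and 6.46 CPM in small control barcodes. Fkbp5, a target of the glucocorticoid receptor, had 29.6 CPM in GS-KO members and 238 CPM in control members, and 18.5 CPM in other large GS-KO barcodes against 282 CPM in other large control barcodes. Arhgef26, Rapgef4, Zbtb16 and Adipor2 were more abundant in other large barcodes than in members of both libraries. The ratios of Ntm, Ank3 and Prkg1 turned to 0.25, 2.34 and 1.92 at 1000 UMIs or more. Reln, a stellate cell marker, had 129 CPM in GS-KO members and 361 CPM in control members. Jchain, a plasma cell gene, had 77 UMIs from 11 GS-KO members and 37 UMIs from 2 control members, of which 1 barcode held 21. In other large barcodes Jchain had 318 CPM in the GS-KO library and 57.7 CPM in the control library, the other direction, and with at least 6 rule-gene UMIs the log2 ratio in members turned to 3.79.

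The clock list differed in small barcodes as well. Core clock genes summed to 318 CPM in GS-KO members and 630 CPM in control members (log2 ratio -0.99, -1.35 to -0.61), with 3 of 6 measured genes 2-fold higher (1 at the bound), 2 lower and a median of the other sign, 0.60 (0.03 at the bound). The list had 158 CPM in small GS-KO barcodes against 666 CPM in small control barcodes. Dbp, an output gene of the clock, had 1 UMI in GS-KO members and 7 in control members, and 2.16 CPM in small GS-KO against 147 CPM in small control barcodes. The part of the hour of sampling, which the labels do not give, was not tested. Proliferation genes summed to 418 CPM in GS-KO members and 184 CPM in control members (log2 ratio 1.15, 0.58 to 1.85) from 325 UMIs in GS-KO members and 24 in control members, with Mki67 at 43 UMIs in GS-KO members and 3 in control members, an interval that includes 0. Of 5 measured genes, 3 were 2-fold or more higher. In small barcodes that list stood at 52.2 CPM in the GS-KO library and 63.5 CPM in the control library. Immediate early genes had a list ratio of 0.58 (0.33 to 0.83) with 4 of 13 measured genes higher, Jun, Junb, Atf3 and Btg2, each with more in other large GS-KO barcodes than in GS-KO members. Oxidative and Nrf2 genes had a list ratio of 0.49 (0.32 to 0.66), with 4 of 12 higher, Cybb (0.54 with free RNA taken off), Ncf4, Sod2 and Osgin1. Complement genes had a list ratio of 0.55 (0.43 to 0.68) with 1 of 11 higher, and were at 10309 CPM in small GS-KO and 5301 CPM in small control barcodes, above members of both libraries.

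Within the GS-KO library the members were divided by class II UMIs. The group with none held 11 members and 7614 UMIs in all, so the exact interval of a gene at 0 UMIs there reached 484 CPM, and single genes are not compared with it. The other Kupffer cell genes stood at 5016 CPM in the 1022 members with 4 or more and 3152 CPM in those 11 (log2 ratio 0.64, 0.09 to 1.31), and the interferon gamma list at 1648 CPM in the 1022 and 788 CPM in the 11 (log2 ratio 0.95, -0.06 to 2.51). The members were therefore ranked by the class II share of their UMIs, a choice made after these counts were seen, and split into 3 like-sized groups, of which the top and the bottom held 367 members each. Class II took a median of 3.17% of UMIs in the top group and 0.786% in the bottom group. The 3 groups differed in more than class II. Rule genes took 1.92% of UMIs in the top group, 1.43% in the middle and 0.835% in the bottom group. Hepatocyte markers took 5.69% in the top, 6.57% in the middle and 6.76% in the bottom group, and Malat1 stood at 3199 CPM in the top, 5983 CPM in the middle and 15012 CPM in the bottom group. The other Kupffer cell genes stood at 6967 CPM in the top group and 2978 CPM in the bottom group (log2 ratio 1.23, 1.11 to 1.34). A class II share thus moved with how much Kupffer RNA a barcode held, and the 2 cannot be told apart in this ranking. Of 3440 genes compared, 13.4% were 2-fold or more higher in the top group.

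Dividing by class II UMIs per rule-gene UMI, also chosen after the counts were seen, set 371 members in the top and 387 in the bottom group. The 8 rule genes, the divisor of this ranking, stood at 10345.5 CPM in the top and 14406.5 CPM in the bottom group (log2 ratio -0.48). The ranking thus favours members with few rule-gene UMIs at the top. The other Kupffer cell genes then stood at 4970 CPM in the top group and 4502 CPM in the bottom group (log2 ratio 0.14, 0.03 to 0.26), and the lists lay closer together. The interferon gamma list stood at 1821 CPM in the top group and 1297 CPM in the bottom group (log2 ratio 0.49, 0.29 to 0.69), and the lysosome list at 13312 CPM in the top and 10279 CPM in the bottom group (log2 ratio 0.37, 0.30 to 0.44). Among the named genes of this ranking the highest ratio was that of Cxcl9, at 220 CPM (167 to 284) in the top group and 18.2 CPM (5.91 to 42.5) in the bottom group, from 58 UMIs in the top and 5 in the bottom group. Ranked by class II share Cxcl9 had 282 CPM in the top group and 21.8 CPM in the bottom group. In both rankings the bottom level lay under the 53.9 CPM of small GS-KO barcodes. Few members held any Cxcl9 UMI, as given above, and the counting intervals do not cover that spread between members. Cxcl9 is also a gene of the interferon gamma list, so part of that list's difference is the same counts. The Fc receptor gene Fcgr3 had 163 CPM in the top group per rule-gene UMI and 54.6 CPM in the bottom group, and the interleukin 10 receptor gene Il10ra had 98.6 CPM in the top and 21.9 CPM in the bottom group. Jchain had 171 CPM in the top group and 51.0 CPM in the bottom group in this ranking, but 0 UMIs in the top group and 52 UMIs in the bottom group by class II share, so its place depended on the ranking. By class II share the genes with the lowest ratio included Hsd3b3 and Gckr, which hepatocytes express, at 0 and 1 UMI in the top group and 56 and 68 UMIs in the bottom group.

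**Figure D4:**
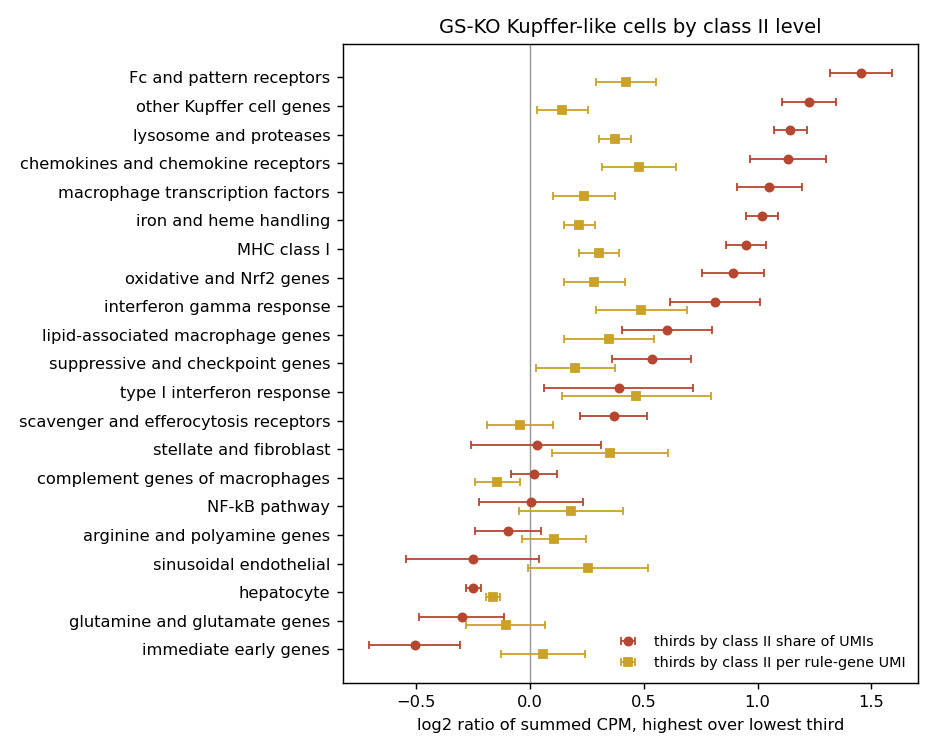
Log2 ratio of summed CPM of the top over the bottom of 3 like-sized groups of GS-KO members (x axis) for gene lists (y axis), ranked by class II share of UMIs (circles) or by class II per rule-gene UMI (squares), with 95% counting intervals. The other Kupffer cell genes are at 1.23 in the first ranking and 0.14 in the second, and the interferon gamma list at 0.81 and 0.49.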

How the data were processed

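The data are 2 single-cell libraries, 1 per group. The authors deposited raw UMI counts per gene and barcode, 57973740 UMIs in the GS-KO and 61635695 in the control matrix. The file headers name Cell Ranger 8.0.0 and the submitters' processing notes name mm10. Filters on barcodes before deposit are not stated.

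Counts were summed over members per library, 776701 UMIs in GS-KO and 130140 in control, so 1 UMI is 1.29 CPM in GS-KO and 7.68 CPM in control members. Poisson intervals (levels), conditional binomial intervals (ratios) and Clopper-Pearson intervals (shares) are at 95% and cover counting error only. Genes at 0 were set to 3 counts for a bound. Python 3.11.15, numpy 2.4.6, pandas 2.3.3 and scipy 1.17.1 were used, and the ratio step was tested on simulated data.

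Besides list genes, the text names the 20 genes furthest above small barcodes in both libraries (at least 20 UMIs in each), the 15 highest and 15 lowest by ratio with 5 CPM added (at least 50 UMIs and 50 CPM, and 2-fold above small barcodes in the library where the level is higher, not in both), and genes of the class II ranking. Mitochondrial, ribosomal, immunoglobulin and sex-linked genes were left out of the naming. The list symbols Clec7a, Sting1, Mx1 and Lilrb4b were not matched and not used here. The members and lists were chosen with earlier results of these data known. Alternatives were other thresholds, scalings, thinning and removal of free RNA.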

Additional observations from a re-analysis of the deposited data

How the results depend on the processing

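On recomputing, 731 values stayed within the counting interval of the reported value (member counts within 1.5 times), 81 moved beyond it, and 8 that were 2-fold or more as reported changed sign. Counting smaller ratios too, 29 changed sign. The class II ratio was above 0 under every alternative, at 1.91 with free RNA taken off, 2.48 for members with at least 2 UMIs outside C1qa, C1qb and C1qc, and 2.81 at 1000 UMIs. With free RNA taken off the other Kupffer cell genes stood at -0.24. At least 6 rule-gene UMIs left 128 control members. A minimum of 1000 UMIs left 109 GS-KO and 12 control members, with list ratios of 0.24 (other Kupffer cell genes), 0.89 (interferon gamma), 0.22 (suppressive) and -0.82 (glutamine). Ratios of 2-fold or more that changed sign there were Cd274 (-0.040), Art2b (-0.040), Ntm (0.25), Ank3 (2.34), Prkg1 (1.92), Id3 (-0.59) and Cxcl9 (-1.63), and with at least 6 rule-gene UMIs Jchain (3.79). For Cd274 and Art2b, both at 0 UMIs in control members, the negative sign came from the counts added to each sum. Ratios under 2-fold that changed sign at 1000 UMIs were those of the scavenger (0.20), suppressive (0.22), stellate (0.68) and B cell (-1.01) lists, Glul (1.31) and Wfdc17 (0.0094). With at least 6 rule-gene UMIs they were those of the other Kupffer (-0.016), iron (-0.051), lysosome (-0.036) and plasma cell (0.79) lists. With free RNA taken off they were those of the other Kupffer, iron (-0.26), lysosome (-0.25) and lipid-associated (-0.24) lists and Glul (0.28). The other sign changes were of the suppressive (0.098 with at least 3 rule-gene UMIs, 0.035 without the C1q genes), endothelial (0.036 with at least 3, 0.13 without other immune UMIs), plasma cell (0.17 without the C1q genes) and iron lists (-0.0051 scaled without mitochondrial and hepatocyte-marker UMIs). The first 2 settings leave fewer members, and the cause was not tested otherwise. Against barcodes of 300 to under 400 UMIs the other Kupffer cell genes stood at 3.20 in GS-KO members, against 3.46. Another setting, added after seeing the data, left out members with any UMI of other immune lists. Those were the plasma cell, dendritic cell, B cell, neutrophil, and T and NK cell lists. It kept 793 GS-KO and 159 control members, with class II at 2.43. The monocyte list was not among them, so members with monocyte markers stayed in. The ratio of Cd163 stayed between -3.60 and -2.68. No paired analysis was possible because each group is 1 library.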
